A study of Mus musculus with 12 samples.

Results

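The 10 genes described here are the E2F transcription factors E2f1, E2f2, E2f3, E2f7 and E2f8, the retinoblastoma family genes Rb1, Rbl1 and Rbl2, and the proliferation transcription factors Foxm1 and Mybl2. They were chosen by name. Every non-control probe of the array that carries one of these names was taken, which gave 15 probes of the 55675 probes with values, and 10 gene names of 34796. The aorta was taken from C57BL/6J mice, which were adult males per the study's methods, at day 3 of treatment, and 4 groups of 3 mice were measured with 1 array for each mouse. The DMSO group received dimethylsulfoxide (DMSO), the vehicle. The rapamycin group received rapamycin, an inhibitor of the kinase mTOR, at 2 mg/kg/day in DMSO. The BA+DMSO group received the vehicle together with the BAPN + AngII challenge, in which 150 mg/kg/day of β-aminopropionitrile (BAPN, which blocks collagen crosslinking) and 1 µg/kg/min of angiotensin II (AngII) are infused to produce aortic dissection. The BA+rapamycin group received the same challenge and rapamycin. The labels give no genetic change in any group. The titles of the DMSO samples read Pre, whereas the record of the series names this group DMSO alone at day 3. The samples are whole pieces of artery wall, so that for every gene below fewer cells of a type and less RNA per cell cannot be told apart.

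E2F proteins bind DNA with a partner of the DP family and switch on the genes a cell needs to copy its DNA. In a resting cell they are held by the pocket proteins, RB1 (the product of Rb1), p107 (Rbl1) and p130 (Rbl2), until cyclin-dependent kinases phosphorylate the pocket proteins and release E2F. E2F1, E2F2 and E2F3 are the activators of the family, E2F7 and E2F8 are atypical members that repress the same targets later in the cycle without a DP partner, and B-Myb (Mybl2) and FOXM1 then act with the MuvB complex on the genes of mitosis. Smooth muscle cells of a healthy adult aorta divide rarely, and their return to the cell cycle is a known feature of injury of the artery wall.

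All values are log2 signals of 1 probe minus the 75th percentile of that array, so that 0 is the 75th percentile and a difference of 1 is a 2-fold change. A probe counted as measured on an array if the scanner software flagged a share of 0.5 or more of its spots as well above background, and it was tested if it was measured on all 3 arrays of at least 1 group. Of the 15 probes 12 were tested, for 9 of the 10 genes. Where a gene had several probes, the brightest on average is called the main probe. The main probes of 8 genes were measured on all 12 arrays. Foxm1 entered the test through the challenged groups, being measured on 1 of 3 arrays in each unchallenged group, so that counts over the tested genes are descriptions of these genes. E2f8 was not tested, since it was measured on 2 of 3 arrays in each challenged group and on no other. The 75th percentile itself, before it was subtracted, was an intensity of 221 to 280 on the DMSO arrays, 257 to 337 on the rapamycin arrays, while the BA+DMSO arrays ran from 78.1 to 246 and the BA+rapamycin arrays from 74.6 to 109. The 3 DMSO arrays and rapamycin replicate 1 lay on slide 1 and the other 8 arrays on slide 2.

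Of the 10 genes 8 matched by symbol a window in the RefSeq promoter table for GRCm38.p6, all but Rb1 and Foxm1. A window runs from 250 bases before to 50 bases after an annotated start and holds 300 bases, and positions count from 1 at the start and from -1 just before it. The sequences are shown because the E2F family is known to bind promoters of its own members. Capitals mark a match, on either strand, to an E2F motif (TTNNCGN, where each N is C or G), to the CHR motif of mitotic genes (TTTGAA) or to the CCAAT box (CCAAT). For Rbl1, E2f7, E2f3 and Rbl2 the stretch printed covers 170 bases before to 30 bases after the start. For E2f2, Mybl2 and E2f8 it is 30 bases around the E2F match nearest the start.
Rbl1 (chr2:157204505-157204704, minus strand): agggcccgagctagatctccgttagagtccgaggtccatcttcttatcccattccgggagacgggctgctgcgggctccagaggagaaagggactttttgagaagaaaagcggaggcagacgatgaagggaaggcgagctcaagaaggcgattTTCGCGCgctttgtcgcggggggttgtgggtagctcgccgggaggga
E2f7 (chr10:110745269-110745468, plus strand): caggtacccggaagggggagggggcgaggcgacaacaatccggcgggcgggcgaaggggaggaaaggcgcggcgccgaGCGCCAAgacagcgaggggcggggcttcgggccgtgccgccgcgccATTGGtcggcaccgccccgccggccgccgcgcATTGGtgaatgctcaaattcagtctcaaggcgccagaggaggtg
E2f3 (chr13:29986034-29986233, minus strand): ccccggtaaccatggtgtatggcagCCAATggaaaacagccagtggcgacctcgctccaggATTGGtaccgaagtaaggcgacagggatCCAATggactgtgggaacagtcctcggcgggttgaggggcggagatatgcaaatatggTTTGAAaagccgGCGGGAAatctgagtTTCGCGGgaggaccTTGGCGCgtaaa
Rbl2 (chr8:91069887-91070086, plus strand): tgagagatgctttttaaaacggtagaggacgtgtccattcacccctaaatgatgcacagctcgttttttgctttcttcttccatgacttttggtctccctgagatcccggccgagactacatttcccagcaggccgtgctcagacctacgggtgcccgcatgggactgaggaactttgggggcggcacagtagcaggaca
Mybl2 (chr2:163054609-163054638, plus strand): cgccgacgcacTTGGCGGgagataggaaag
E2f2 (chr4:136172288-136172317, plus strand): gagatccgaatTTGGCGGcatatagtttgg
E2f8 (chr7:48881689-48881718, minus strand): agaggcgcggATTGGCGCgcggggccccgg

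E2f2 and E2f3 have 2 windows each, and the first was used. An E2F match was found in the window of 6 of the 8 genes, E2f2, E2f3, E2f7, E2f8, Rbl1 and Mybl2, where 17.8% of all 32851 windows of the table hold one. The match in Rbl1 began at position -17, that in Mybl2 at -15. E2f2 held matches at 26 and 41, and the second runs past the stretch printed and is not in capitals. E2f3 held matches at -11, 5 and 19, within the stretch printed. The E2F match of E2f8 at -111 overlaps a CCAAT box on the opposite strand that begins at -112, and the capitals join them. CHR letters were present in 3 of the 8 windows (E2f3, E2f8 and Rbl2, against 17.9% of all windows) and a CCAAT box in 4 of the 8 (against 37.4%). The CHR letters of Rbl2 at -201 and of E2f8 at -20 lie outside the stretches printed. So do the E2F matches of E2f7 at -223 and -198 and the CCAAT box of E2f2 at -13. The starts on which the windows of E2f1, E2f8 and Mybl2 are set lie 466, 477 and 308 bases inside the gene's annotated span, and the E2f1 window holds none of these letters. These matches describe letters in 1 window of each gene.

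The first question was what the challenge did to the activator E2Fs. E2f1 and E2f2 were both more than 4-fold higher in BA+DMSO than in DMSO. E2f1, an activator that also takes part in the response to DNA damage, was read by 1 probe (mm9 chr2:154385798-154385857, minus strand). Its signal was -0.75, -1.06 and -0.83 on the DMSO arrays, -1.28, -0.96 and -1.48 on the rapamycin arrays, 1.81, 0.91 and 1.36 on the BA+DMSO arrays, and 0.43, 0.01 and 0.31 on the BA+rapamycin arrays. The 4 groups fell into 3 levels, with the unchallenged arrays low, BA+rapamycin between and BA+DMSO high, and neither challenged group overlapped any other group. E2f1 rose by 2.24 ± 0.24 (SE, 3 arrays against 3) on the log2 scale with the challenge, a 4.73-fold change (adjusted p = 0.00037).

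E2f2, the activator best known from blood-forming cells, was read by 1 probe on chromosome 4 (mm9 chr4:135750562-135750621, plus strand). Its DMSO arrays gave -1.67, -1.59 and -1.30, its rapamycin arrays -2.89, -1.73 and -2.98, its BA+DMSO arrays 1.07, 0.31 and 0.67 and its BA+rapamycin arrays 0.13, 0.32 and 0.07. Every challenged array lay above every unchallenged array, and the challenged groups overlapped each other. E2f2 rose by 2.20 ± 0.32 (SE), 4.59-fold (adjusted p = 0.00141). The markers of red blood cells, Alas2, Hba-a1 and Hbb-b1, were all 3 called higher in BA+DMSO, where 9.65% of all tested probes were. Of the 6 macrophage markers 5 were called higher too. The summed level of the erythroid markers was 18.0 to 84.0 times the 75th percentile in DMSO, 80.3 to 186 in rapamycin, 114 to 233 after the challenge and 308 to 350 after the challenge with rapamycin. With rapamycin the direction was opposite to that of E2f2. The median difference of the erythroid markers was 1.48 without the challenge and 1.16 under it, where E2f2 differed by -1.02 and -0.51. The part of these cells in the E2f2 result was not tested.

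E2f3, the third activator, had 2 tested probes that read differently. The main probe (mm9 chr13:29998480-29998539) gave -0.29, 0.14 and -0.43 in DMSO, 0.35, -0.93 and 0.58 in BA+DMSO, -0.66, -0.43 and -0.45 in rapamycin and -0.18, -0.09 and -0.44 in BA+rapamycin. DMSO and BA+DMSO overlapped, and the challenge difference was 0.19 (95% interval -0.55 to 0.93, adjusted p = 0.716), whereas without BA+DMSO replicate 2 it was 0.66 and called (adjusted p = 0.0326). The other probe, whose bases lie on both sides of a gap between mm9 positions 30005369 and 30008755, read -2.48, -2.43 and -2.66 in DMSO and -1.24, -0.95 and -1.55 in BA+DMSO, with no overlap, and -2.91, -1.97 and -3.09 in rapamycin and -0.90, -1.60 and -0.95 in BA+rapamycin. It rose by 1.28 ± 0.30 with the challenge (adjusted p = 0.0151). Both probes carry the same gene name, and no single value stands for E2f3 in these arrays.

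The atypical repressors E2f7 and E2f8 were dim or near background in the unchallenged aorta. E2f7 was read by a main probe (mm9 chr10:110219255-110219314) that gave -2.38, -2.95 and -2.79 in DMSO, -2.15, -1.29 and -2.52 in BA+DMSO, -2.49, -2.30 and -2.13 in rapamycin and -1.61, -0.99 and -1.44 in BA+rapamycin. The challenge difference of this probe was 0.72 ± 0.30 (adjusted p = 0.115), with overlapping groups. It was 0.99 and called without BA+DMSO replicate 3 (adjusted p = 0.0242), and 0.37 without replicate 2 (0.269). A further E2f7 probe (mm9 chr10:110224331-110224390) was not well above background on any of the 6 unchallenged arrays and was measured on all 6 challenged arrays. It read -4.63, -4.59 and -3.93 in DMSO, -5.87, -4.91 and -5.30 in rapamycin, -0.17, -1.90 and -0.70 in BA+DMSO and -1.59, -1.84 and -1.48 in BA+rapamycin. Against the dimmest signal measurable in DMSO it was at least 8.83-fold higher in BA+DMSO (adjusted p = 0.000564, measured means -4.38 in DMSO and -0.92 in BA+DMSO). The bound sets the mean of the bright group against, for each dim array, the higher of the probe's own signal and the lowest signal among the probes well above background. This probe entered the test only through the challenged groups.

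E2f8 had 1 probe (mm9 chr7:56121860-56121919, minus strand). It gave -5.66, -5.94 and -5.69 in DMSO and -5.87, -6.12 and -6.22 in rapamycin, none of them well above background. In BA+DMSO it gave -0.09, -2.28 and -0.91, and in BA+rapamycin -1.52, -2.13 and -1.67, measured on 2 of 3 arrays in each. Every challenged array was above every unchallenged array, and the E2f8 signal in BA+DMSO was at least 7.85-fold above the dimmest signal measurable in DMSO. No p-value is attached to this bound, since E2f8 did not pass the filter.

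The pocket proteins did not move as one. Rb1, whose product is the classical retinoblastoma protein, was measured with 10 spots on each array (mm9 chr14:73595408-73595467, minus strand). Its signal was 1.62, 1.68 and 1.69 in DMSO, 1.79, 1.86 and 1.87 in rapamycin, 1.19, 0.83 and 1.61 in BA+DMSO and 1.07, 0.94 and 0.85 in BA+rapamycin. All challenged arrays lay below all unchallenged arrays, BA+DMSO replicate 3 only just, and the unchallenged arrays of a group lay within 0.1 of each other while those of BA+DMSO were spread more widely. With the challenge the Rb1 difference was -0.45 ± 0.19 (adjusted p = 0.118), and it was called without BA+DMSO replicate 3 (-0.65, adjusted p = 0.00941). Rbl2, whose product p130 is the pocket protein of resting cells, was read on chromosome 8 (mm9 chr8:93647120-93647179). It gave -0.30, 0.00 and 0.17 in DMSO, 0.00, -0.28 and -0.41 in rapamycin, -1.11, -0.60 and -0.93 in BA+DMSO and -1.13, -1.34 and -1.57 in BA+rapamycin. Rbl2 fell by 0.83 ± 0.21 on the log2 scale with the challenge, 1.78-fold (adjusted p = 0.0181). Every BA+DMSO array was below every DMSO array, as it was for 5597 of all 27801 tested probes. The call was lost without BA+DMSO replicate 1 (adjusted p = 0.0661), DMSO replicate 2 (0.0749) or DMSO replicate 3 (0.0742). It was also lost with normexp background correction (0.0719), with no filter on dim probes (0.0571), with only the groups of the contrast (0.0996), with array weights (0.565) and with slide as a fixed block.

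Rbl1 encodes p107, the pocket protein that accumulates in dividing cells. Its main probe (mm9 chr2:156972143-156972202) gave -1.82, -1.71 and -1.80 in DMSO, -1.75, -2.15 and -1.73 in rapamycin, 0.47, -1.54 and 0.17 in BA+DMSO and -0.95, -1.49 and -1.12 in BA+rapamycin. All challenged arrays lay above all unchallenged arrays, but BA+DMSO replicate 2 lay only just above them. Rbl1 rose by 1.48 ± 0.42 with the challenge, 2.78-fold (adjusted p = 0.0307). The call was lost without any 1 of the DMSO arrays (adjusted p = 0.0816, 0.0909 and 0.081 in the order of the replicates) and without BA+DMSO replicate 1 (0.113) or 3 (0.0555), whereas without BA+DMSO replicate 2 the difference was 2.10 (adjusted p = 0.000167). It was also lost with quantile normalization (0.0678), in the deposited matrix (0.0684), with no filter on dim probes (0.0596), with only the groups of the contrast (0.134), with array weights (0.294) and with slide as a fixed block. The other Rbl1 probe (mm9 chr2:157000761-157000820) was measured on 1 of 3 DMSO arrays and 2 of 3 BA+DMSO arrays and was not tested.

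Foxm1 and Mybl2, the transcription factors that carry the program from DNA synthesis into mitosis, were both called higher with the challenge. Foxm1 was read by a main probe on chromosome 6 (mm9 chr6:128324783-128324842) that gave -4.25, -3.93 and -3.22 in DMSO, -5.15, -3.73 and -4.34 in rapamycin, 0.34, -1.45 and -0.31 in BA+DMSO and -1.35, -1.26 and -1.16 in BA+rapamycin. The challenged and unchallenged arrays did not overlap, and the 3 BA+rapamycin arrays fell inside the range of the BA+DMSO arrays. Foxm1 rose by 3.33 ± 0.46 on the log2 scale (adjusted p = 0.00118), a size set against a DMSO group in which 1 of 3 arrays was measured. The other Foxm1 probe (mm9 chr6:128323866-128323925) was measured on 1 array of DMSO and 1 of BA+DMSO and was not tested.

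Mybl2 had 2 tested probes. The main probe (mm9 chr2:162909345-162909404) gave -1.61, -1.65 and -1.46 in DMSO, -1.73, -2.01 and -1.82 in rapamycin, 1.41, 0.76 and 1.00 in BA+DMSO and 0.55, 0.46 and 0.13 in BA+rapamycin. As with E2f1, the BA+rapamycin arrays lay between the BA+DMSO arrays and the unchallenged arrays, with no overlap on either side. Mybl2 rose by 2.63 ± 0.20, 6.18-fold (adjusted p = 9.01e-05), the smallest adjusted p of the 10 genes in this contrast. The other probe (mm9 chr2:162910364-162910423) rose by 1.28 ± 0.41 (adjusted p = 0.0466), from -2.70, -2.30 and -2.04 in DMSO to -1.07, -1.14 and -0.99 in BA+DMSO. Its rapamycin arrays gave -2.65, -2.91 and -3.21.

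**Figure D1:**
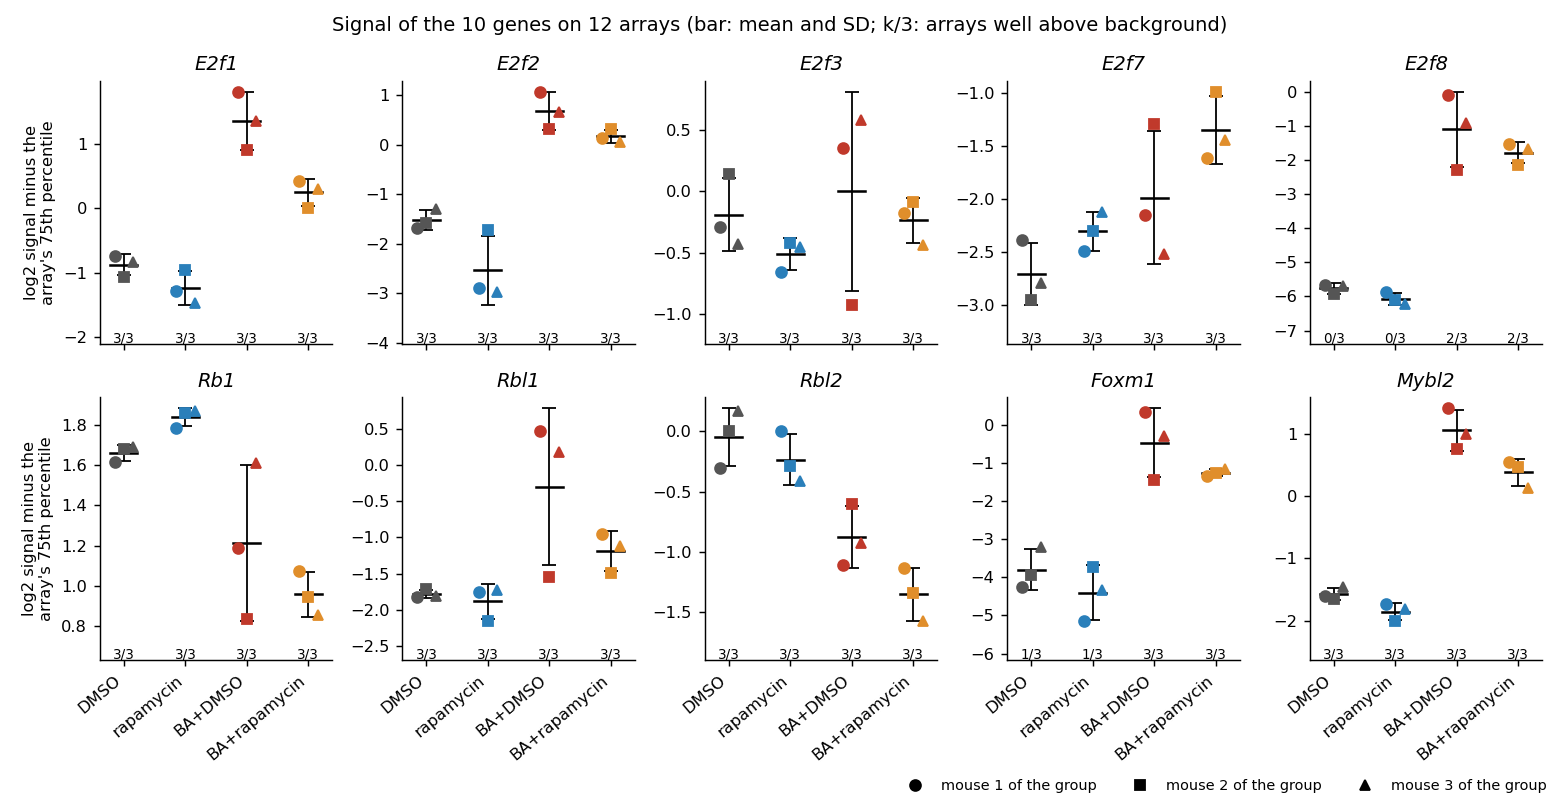
Log2 signal minus the array's 75th percentile (y axis, own scale in each panel) of the main probe of each of the 10 genes in the 4 groups. Points are mice, with 1 marker shape for each replicate number, bars are the mean and SD of 3 arrays, and the fractions count arrays on which the probe was well above background. E2f1 and Mybl2 show BA+rapamycin between BA+DMSO and the unchallenged groups, and E2f8 shows 0 of 3 arrays measured in DMSO and in rapamycin.

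Counted over main probes, 6 of the 9 tested genes were called with the challenge. E2f1, E2f2, Rbl1, Foxm1 and Mybl2 were the 5 called higher, where 9.65% of all 27801 tested probes were called higher. Rbl2 was the 1 called lower, where 10.8% were called lower. Foxm1 entered the test through the challenged groups, so that its call is a description. Of the 8 genes measured on all 12 arrays, 4 were called higher and 1 lower. The shares over all probes depended on single arrays. The 5697 calls over all probes became 2006 without DMSO replicate 2 and 10610 without BA+DMSO replicate 3, the ends of the range over arrays left out. The median difference of the 9 genes was 1.48, against -0.04 over all tested probes. Without overlap between DMSO and BA+DMSO, 5 of the 9 genes were higher and 2 lower. Of all 27801 tested probes 4013 were higher and 5597 lower in this way. By the study's own threshold (unadjusted p under 0.01 and over 4-fold) 4 main probes passed, those of E2f1, E2f2, Foxm1 and Mybl2, where 1.84% of the tested probes passed upward. Every DMSO array was on slide 1 and every BA+DMSO array on slide 2, and only the rapamycin group bridged the slides. With slide as a fixed block 1 of the 9 genes, Mybl2, was called (2.80, adjusted p = 0.0434), and 15 probes were called in all. The other 5 lost the call, with E2f1 at 2.18 (adjusted p = 0.147), E2f2 at 1.66 (0.339), Foxm1 at 2.21 (0.348), Rbl1 at 1.66 (0.484) and Rbl2 at -0.48 (0.661). BA+DMSO replicate 2 stood apart: among the 8 genes that were higher in BA+DMSO by their main probe, it was the lowest of its group for 7, and replicate 1 was the highest for 6.

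The question of the rapamycin treatment was addressed by BA+rapamycin minus BA+DMSO, both on slide 2. None of the 9 tested genes was called (limma, adjusted p under 0.05), where 0.281% of all tested probes were, and 3 of the 9 had an unadjusted p under 0.05. In the mean 8 of the 9 were lower under rapamycin, with a median difference of -0.51 against -0.01 over all tested probes. E2f1 was lower on all 3 arrays, with a difference of -1.11 ± 0.24, 2.16-fold (adjusted p = 0.0779), and a 95% interval of -1.64 to -0.58. With the day in the sample titles as a random block E2f1 was called (-1.19, adjusted p = 0.0355), the 1 gene of the 9, and the calls over all probes went from 78 to 458. BA+DMSO replicates 2 and 3 have no day in their titles and each stood as a block of its own, so that 1 of the 3 BA+DMSO arrays shared a day with another array. Mybl2 differed by -0.68 ± 0.20 by its main probe (adjusted p = 0.133) and by -1.58 ± 0.41 by its other probe (adjusted p = 0.105), where BA+rapamycin gave -1.96, -3.81 and -2.16, each below each BA+DMSO array and measured on 2 of 3. Rbl2, already lower with the challenge, was lower again by 1.39-fold (difference -0.47 ± 0.21, adjusted p = 0.237). For these 3 genes every BA+rapamycin array was below every BA+DMSO array, as it was for 7.57% of all tested probes.

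The other genes overlapped between the challenged groups. Rbl1 differed by -0.89 (95% interval -1.81 to 0.03), Foxm1 by -0.79 (-1.80 to 0.23), E2f2 by -0.51 (-1.21 to 0.18), Rb1 by -0.26 (-0.68 to 0.17) and E2f3 by -0.24 (-0.98 to 0.50) on their main probes. E2f7 was the exception in direction, at 0.64 (-0.02 to 1.31) by its main probe and -0.71 (-1.60 to 0.18) by its other probe. E2f8, not tested, differed by -0.68. The intervals of Rbl1 and Foxm1 hold both no difference and falls of more than 3-fold.

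This contrast depended on BA+DMSO replicate 2. Without that array 8 of 10 tested genes were called, E2f8 then being among those tested, which it entered only through BA+DMSO, so that its call is a description. The 7 called lower were E2f1 (-1.34, adjusted p = 0.00342), E2f3 (-0.70, 0.0202), E2f8 (-1.27, 0.00698), Rb1 (-0.44, 0.039), Rbl1 (-1.51, 0.00221), Foxm1 (-1.28, 0.0355) and Mybl2 (-0.83, 0.00856), and the 1 called higher was E2f7 (0.99, 0.0121). Of all probes tested in that fit 22.5% were called lower and 17% higher, so that probes across the array changed with the same omission. The signal of that array was dim, with a 75th percentile of 78.1 against 132 and 246 on the other BA+DMSO arrays, and 41.2% of its probes were well above background against 46.1% and 49.8%. BA+rapamycin replicate 2 was similarly dim (74.6, 41.2%), and BA+rapamycin replicates 1 and 3 had a 75th percentile of 109 and 108. BA+DMSO replicate 2 was kept except where its omission is stated.

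**Figure D2:**
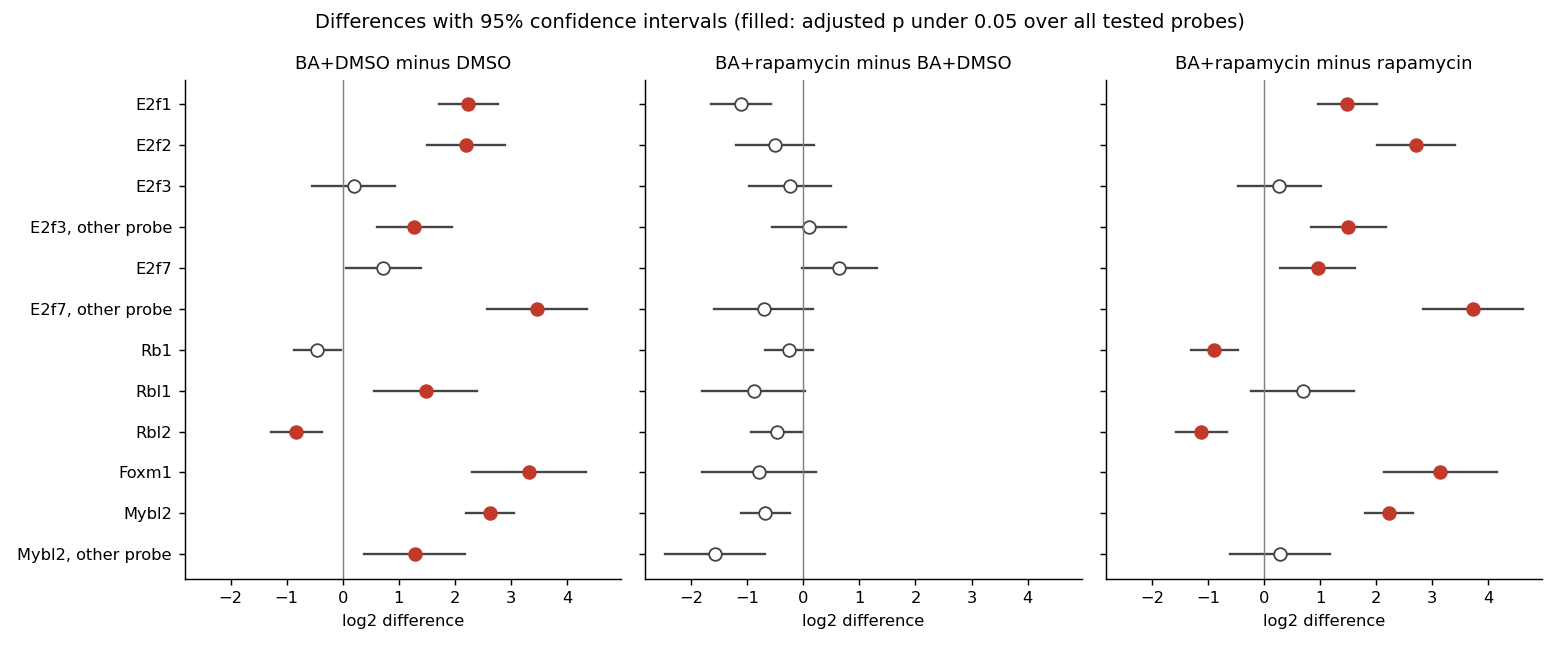
Log2 differences (x axis) of the 12 tested probes in 3 contrasts, with 95% confidence intervals from the limma fit of all 12 arrays, and filled points where the adjusted p over all tested probes was under 0.05. The middle panel holds no filled point, and E2f1 there lies at -1.11 with an interval of -1.64 to -0.58.

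For rapamycin without the challenge no tested gene of the 10 was called (limma, adjusted p under 0.05), where 0.0036% of all probes were called, and 1 gene had an unadjusted p under 0.05. That gene was E2f2, at -1.02 ± 0.32 (adjusted p = 0.865), whose 3 rapamycin arrays were all below the 3 DMSO arrays. Mybl2 also lay lower on all 3 arrays, at -0.28 (95% interval -0.72 to 0.15), and Rb1 higher on all 3, at 0.18 (-0.25 to 0.60). Of all 27801 tested probes 2970 were lower and 3014 higher in this way, without overlap. E2f1 differed by -0.36 (-0.89 to 0.17), with overlap. Foxm1, measured on 1 of 3 arrays in either group, is given no difference here.

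Among mice that all received rapamycin, the challenge contrast (BA+rapamycin minus rapamycin) called 7 of the 9 genes. E2f2 rose by 2.70 ± 0.32, 6.52-fold (adjusted p = 0.000314), Foxm1 by 3.15 ± 0.46 (adjusted p = 0.000989, against a rapamycin group with 1 of 3 arrays measured), Mybl2 by 2.23 ± 0.20 (adjusted p = 9.68e-05), E2f1 by 1.49 ± 0.24 (adjusted p = 0.00154) and E2f7 by 0.96 ± 0.30 (adjusted p = 0.0273). The E2f7 call was lost with slide as a fixed block (0.87, adjusted p = 0.0858), with the title day as a random block (0.81, 0.0523) and within 1 slide (0.87, 0.141), and with array brightness as a covariate its sign turned (-0.0394, 0.963). It was also lost without any 1 of the rapamycin arrays (adjusted p = 0.0883, 0.0663 and 0.0554 in the order of the replicates) and without BA+rapamycin replicate 2 (0.0973) or 3 (0.0564), so that it was lost in 9 of 27 alternatives. Rb1 fell by 0.88 ± 0.19 (adjusted p = 0.00572) and Rbl2 fell by 1.12 ± 0.21 (adjusted p = 0.00284). Every BA+rapamycin array of either gene was below every rapamycin array, as it was for 10040 of all 27801 tested probes. The Rb1 call was lost with array brightness as a covariate (-0.28, adjusted p = 0.46). The Rbl2 call was lost with normexp background correction (-0.39, adjusted p = 0.0565). The 5 higher and 2 lower stand beside 18.9% and 22.9% of all tested probes called in those directions. Of the 8 genes measured on all 12 arrays, which leave out Foxm1, 4 were called higher and 2 lower. Rbl1 did not pass (0.69 ± 0.42, adjusted p = 0.197), nor did the main probe of E2f3 (0.27, adjusted p = 0.523). The other probe of E2f3 rose (1.51, adjusted p = 0.00403). The other probe of E2f7, which entered the test only through the challenged groups and was not well above background on any rapamycin array, was at least 5.46-fold higher (adjusted p = 0.000214), while the other probe of Mybl2 did not pass (0.28, adjusted p = 0.593).

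This contrast can be taken on 1 slide, since rapamycin replicates 2 and 3 shared slide 2 with all BA+rapamycin arrays. Within that slide 4 genes were called higher, E2f2 (2.53, adjusted p = 0.0133), Foxm1 (2.78, 0.018), Mybl2 (2.29, 0.00796) and E2f1 (1.47, 0.0335), where 6.05% of all probes were, and Rbl2 was called lower (adjusted p = 0.0458), where 5.71% were. Rb1 differed by -0.91 there (adjusted p = 0.0645). The contrasts share arrays, and the difference between the challenge effect with and without rapamycin was tested as an interaction. No gene of the 10 was called in it (limma, adjusted p under 0.05), nor was any probe of the array (0%), and 1 of the 9 genes had an unadjusted p under 0.05. That gene was E2f1, at -0.75 ± 0.34 (adjusted p = 0.737). Here too BA+DMSO replicate 2 decided the count: without it 2933 probes were called, with Rbl1 (-1.40, adjusted p = 0.0311) as the 1 gene of the 10. E2f2 gave 0.50 (95% interval -0.48 to 1.49), wide enough to hold a difference of more than 2-fold. Foxm1 is again given no value here, since it was measured on 1 of 3 arrays in each unchallenged group.

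Other genes of the pathway were followed in 4 lists. The partners and complex list holds the E2Fs E2f4, E2f5 and E2f6, the DP partners, the MuvB subunits, Mybl1 and the cofactor Hcfc1, and 11 of its 12 genes were tested. None was called higher with the challenge and 3 were called lower, where 10.8% of all tested probes were: Tfdp2, a DP partner (-0.81, adjusted p = 0.0329), Lin52, a MuvB subunit (-0.80, 0.0481), and Hcfc1, a cofactor of chromatin regulators (-0.54, 0.0305). Tfdp1, the main DP partner, differed by 0.77 (0.0558). The repressive E2Fs E2f4, E2f5 and E2f6 differed by -0.06, -0.94 and -0.19, and Rbbp4, Lin9, Lin37 and Lin54 by -0.49, 0.40, 0.17 and -0.25, none of them called. Mybl1 was not tested. The median of the list was -0.25 with the challenge and -0.19 under rapamycin.

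The G1 inputs, the cyclins, kinases and inhibitors that act on the pocket proteins, had 4 of 15 tested genes called higher with the challenge and 2 called lower, beside 9.65% and 10.8% of all tested probes. Ccne1, which encodes cyclin E1, the partner of CDK2 at the start of DNA synthesis, rose by 3.67 (adjusted p = 0.000528). Cdkn2a, which encodes the inhibitors p16 and p19ARF, was not well above background on any DMSO array, entered the test only through BA+DMSO, and was at least 4.53-fold higher there (adjusted p = 0.00109). Ccnd1, which encodes cyclin D1, rose by 1.88 (adjusted p = 0.000906). The list's median was 0.47, and of the 13 genes measured on all 12 arrays 3 were called higher and 2 lower. Cdk6 and Ccne2 were not well above background on any array.

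Targets of the pathway rose widely with the challenge. Of the G1/S targets, genes of DNA replication and nucleotide supply, 18 of 28 tested were called higher and 1 lower, beside 9.65% and 10.8% of all tested probes, with a median of 1.46. The 3 with the largest differences were Tk1, thymidine kinase (3.80, adjusted p = 0.00037), Uhrf1, which maintains DNA methylation at replication (3.72, 0.000315), and Mcm10, a replication initiation factor (3.36, 0.000825). Of the G2/M targets, the genes of mitosis, 18 of 20 tested were called higher and none lower, beside the same shares, with a median of 3.93. Cdk1, the kinase that drives entry into mitosis, was at least 11.3-fold higher in BA+DMSO (adjusted p = 0.000511), Ccnb1, its cyclin B1 partner, rose by 4.93 (0.00037) and Kif20a, a kinesin of cell division, by 4.72 (0.000708). Some of these genes passed the filter only because they were bright after the challenge. Of those measured on all 12 arrays, 17 of 24 G1/S targets (median 1.57) and 10 of 11 G2/M targets (median 3.39) were called higher.

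Under rapamycin none of the tested genes of these 4 lists was called in BA+rapamycin minus BA+DMSO (limma, adjusted p under 0.05). Of all 27801 tested probes 0.281% were called in this contrast, and 14097 had a negative difference. All 28 tested G1/S targets had a negative difference, with a median of -0.97, as had all 20 tested G2/M targets, with a median of -1.30. Over the genes measured on all 12 arrays the differences were negative for 24 of 24 G1/S targets (median -0.97) and 11 of 11 G2/M targets (median -1.24). The median was -0.19 for the partners and -0.50 for the G1 inputs. By array, the median of the 11 G2/M targets measured on every array was 4.55, 1.92 and 3.72 above the DMSO mean in BA+DMSO and 2.33, 1.92 and 2.21 above it in BA+rapamycin. BA+DMSO replicate 2 thus lay at the lower end of the range of the BA+rapamycin arrays, and the main probes of 5 of the 10 genes, E2f3, E2f8, Rb1, Rbl1 and Foxm1, were lower on that array than on any BA+rapamycin array.

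**Figure D3:**
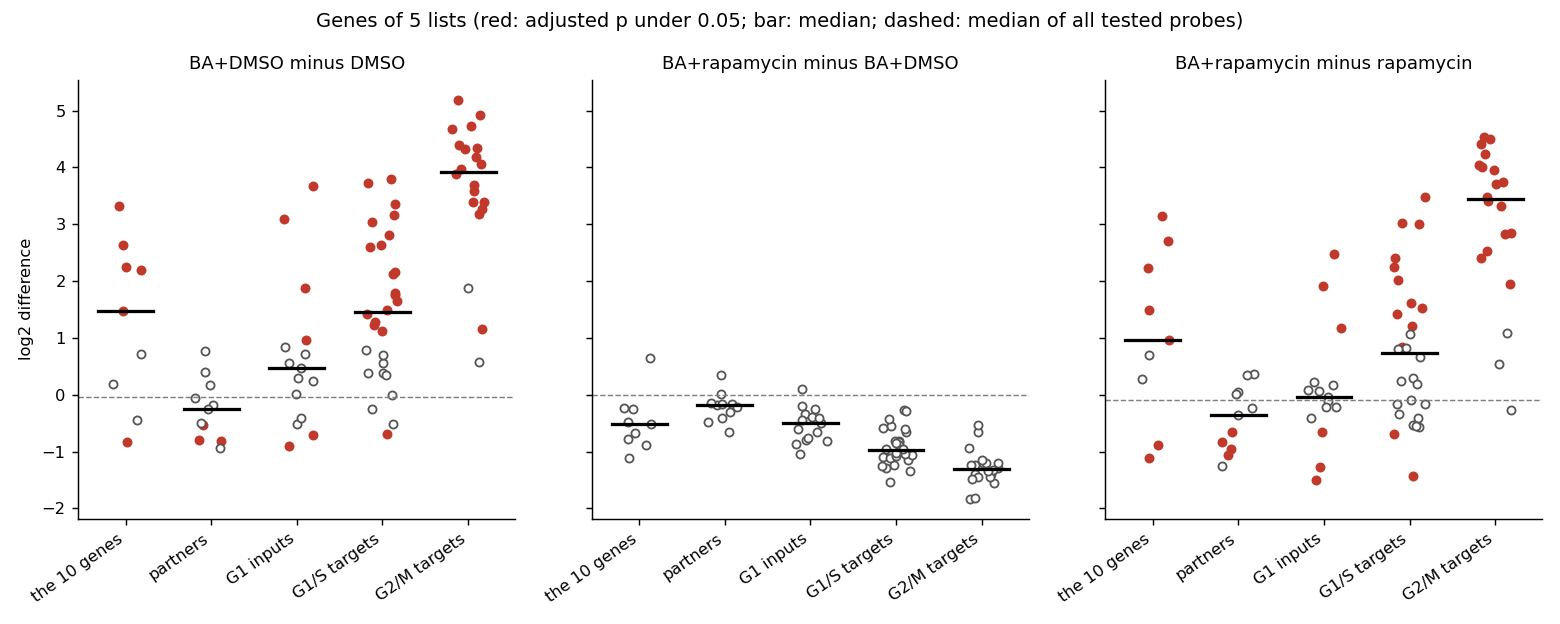
Log2 differences (y axis) of the tested genes of 5 lists in 3 contrasts. Each point is a gene by its main probe, whether or not it was measured on all 12 arrays, red where the adjusted p was under 0.05, with a bar at the median of the list and a dashed line at the median of all tested probes. The G2/M targets have medians of 3.93 with the challenge and -1.30 for BA+rapamycin minus BA+DMSO, and the middle panel holds no red point.

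**Figure D4:**
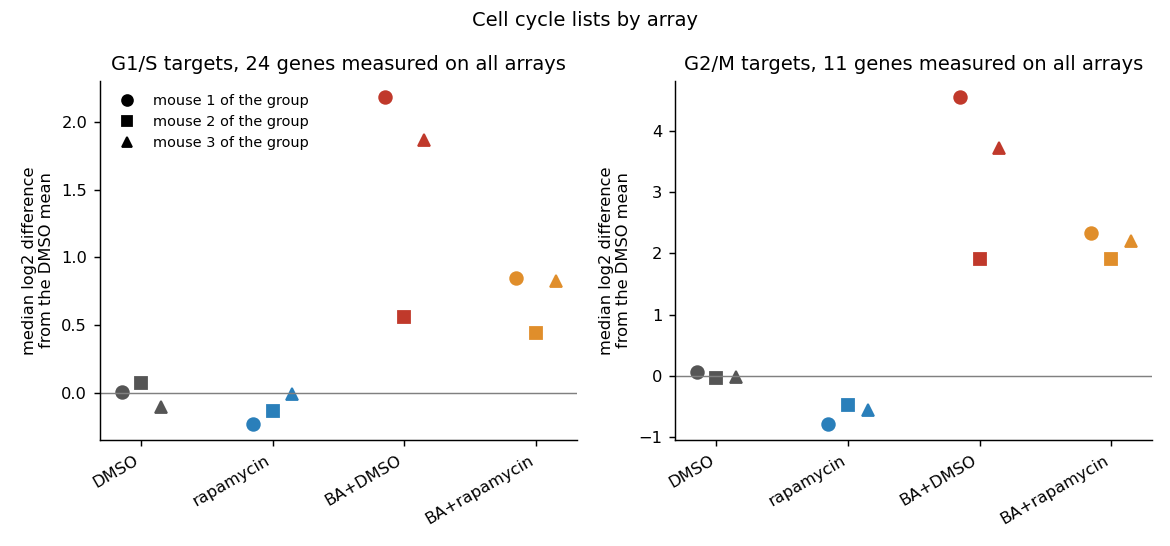
Median log2 difference from the DMSO mean (y axis) over the 24 G1/S targets and 11 G2/M targets measured on all 12 arrays, shown for each array with 1 marker shape for each replicate number. For the G2/M targets the BA+DMSO arrays lie at 4.55, 1.92 and 3.72, and the BA+rapamycin arrays between 1.92 and 2.33.

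Markers of cell types were set beside these results. The 6 smooth muscle markers, which check the labelled tissue, were all measured on all 12 arrays, with a summed level of 2841 to 3061 times the 75th percentile in DMSO, 2575 to 3034 in rapamycin and 3470 to 4510 in BA+rapamycin. The BA+DMSO arrays gave 2455 and 2747, and 4817 on replicate 2, the array on which the BA+rapamycin contrast depended. With the challenge 1 of the 6, Lmod1, was called lower (-1.91, adjusted p = 0.0019), where 10.8% of all tested probes were called lower. The median of the 6 was -0.46. The counts of called markers below stand beside the 9.65% of all tested probes called higher with the challenge. Of the 6 macrophage markers 5 were called higher, and their summed level was 108 to 139 in DMSO, 114 to 140 in rapamycin, 174 to 486 after the challenge and 368 to 494 after the challenge with rapamycin. Neutrophil markers had 1 of 4 called higher, with summed levels of 206 to 257 in DMSO, 202 to 242 in rapamycin, 154 to 600 after the challenge and 502 to 655 after the challenge with rapamycin. T cell markers summed to no more than 3.14 and B cell markers to no more than 1.11 on any array, with 1 of 4 T cell and 0 of 2 tested B cell markers called. Fibroblast and endothelial markers each had 1 of 4 called higher. Adipocyte markers had 1 of 4 called higher, and 0 of the 3 that were measured on all 12 arrays. Striated muscle markers had 0 of 3 called, with Myh4 not well above background on any array. The summed level of the striated muscle markers was 56.7 to 60.6 in DMSO, 50.2 to 59.1 in rapamycin and 15.4 to 25.5 after the challenge with rapamycin. The BA+DMSO arrays split, with 17.5 and 20.9 on replicates 1 and 2 and 62.1 on replicate 3. The part of these cell types in the results for the 10 genes was not tested.

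For each tested gene of the 10, the genes with the most similar pattern were found by the root mean square difference of log2 values over the 12 arrays, each gene centred on its own mean, among 20025 other names. E2f1 lay nearest to the histone genes Hist1h2ah and Hist1h2ak (both 0.19, against a median of 1.15 over all names). Those histone genes have near-identical copies that a probe may not tell apart. Foxm1 lay nearest to Plk1, a mitotic kinase (0.32), and Diap3 (0.35). Since Foxm1 was measured on only 1 of 3 arrays in either unchallenged group, its distances rest in part on signals near background. Mybl2 lay nearest to Pole, which encodes a subunit of DNA polymerase epsilon (0.25), and Hist1h2ah (0.25). Rbl1 lay nearest to Mcm3, a subunit of the replicative helicase (0.19), and Bard1 (0.21), and E2f2 to Slc17a9 (0.33) and Traip (0.39). Of the other genes, E2f3 had Yipf6 and Ak1 (both 0.16), E2f7 had Pcdh1 (0.15) and a probe named only by a region of chromosome 4 (0.18), Rb1 had Mbnl2 and Gapvd1 (both 0.08), and Rbl2 had Col4a6 (0.17) and Aldh4a1 (0.18). The distances cannot be compared between the genes, since the median over all names ran from 0.53 for Rb1 to 1.79 for Foxm1.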

How the data were processed

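RNA of the aorta of 12 mice was measured on 1-colour Agilent mouse arrays, 1 array for each mouse, and samples were grouped by their treatment labels. Per the file headers the authors read the images with Feature Extraction 10.7.1.1, while the submitters' processing notes name version 9.5.1.1. Probes are placed on mm9 by the files. The deposited scanner files hold a background-subtracted, detrended processed signal, an intensity on a linear scale that is not normalized between arrays, with flags of 0 or 1 for outlier, saturated and well above background spots. The values of the deposited matrix are linear intensities that were quantile normalized, as a comparison with the scanner files showed.

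Outlier and control spots of the deposited files were removed, log2 was taken of the processed signal, spots of a probe were averaged, and each array's 75th percentile was subtracted. No spot was saturated. One limma 3.58.1 model (R 4.3.3, with data.table in version 1.17.8) with 4 group means and moderated variances was fitted to the 27801 tested probes of all 12 arrays. Tests were two-sided, with Benjamini-Hochberg adjustment within each of 5 contrasts and calls at an adjusted p under 0.05. The number of arrays limits the precision, and p-values measure the spread between these mice. The programs were tested on simulated data.

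The 10 genes and all lists were chosen with earlier results of these data known. The genes named are the 10, all of the partners and complex list, from each other pathway list the 3 tested genes with the largest challenge difference, any called in BA+rapamycin minus BA+DMSO (there were none), and the 2 nearest genes of each tested gene. Also named are Cdk6, Ccne2 and Myh4, which were not well above background on any array. The markers Lmod1, Alas2, Hba-a1 and Hbb-b1, called with the challenge, are named as well. Each list was described by its counts and median, with 1 probe per gene. Marker lists covered smooth muscle, macrophage, neutrophil, T cell, B cell, endothelial, fibroblast, erythroid, adipocyte and striated muscle. One marker of the lists is not reported here. The alternatives were quantile normalization, the deposited matrix, normexp with an offset of 50, other filters, slide or the day in the sample titles as a block, array weights, array brightness as a covariate, robust variances, fewer groups and leaving out each array. Promoter windows and gene spans came from RefSeq (GRCm38.p6) and were not joined to the mm9 probe positions.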

Additional observations from a re-analysis of the deposited data

How the results depend on the processing

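The count of called genes among the 9 with the challenge moved from 6 to 1 with slide as a fixed block and to 1 with array weights, whose estimation did not converge. For BA+rapamycin minus BA+DMSO it moved from 0 to 1 with the title day as a random block. Without BA+DMSO replicate 2 it was 8 of the 10 genes tested in that fit, with E2f8 among the 8 (0 to 8 over the arrays left out). Rapamycin alone moved from 0 to 1 with array weights, where the calls over all probes went from 1 to 1512. The interaction moved from 0 to 1 without BA+DMSO replicate 2 (0 to 1). The count by the study's threshold moved from 4 to 0 with normexp, 2 with slide as a fixed block and 2 with array weights. These signs turned, of values not called except E2f7 in BA+rapamycin minus rapamycin: with slide as a fixed block, E2f3 in the challenge (-0.0256), Rbl1 (0.0232) and Rbl2 (0.0440) in rapamycin alone, with the same values within a slide, and Foxm1 in the interaction (0.57); with array brightness as a covariate, E2f3 in BA+rapamycin minus BA+DMSO (0.13), E2f7 in BA+rapamycin minus rapamycin (-0.0394) and in the interaction (-0.19), and Foxm1 in the interaction (0.13); with array weights, Foxm1 in the interaction (0.18); with normexp, Rbl2 in the interaction (0.0484); and on other probes, E2f3 (0.10) and E2f7 (-0.71) in BA+rapamycin minus BA+DMSO and E2f7 in rapamycin alone (-0.97). Leaving out single arrays gave ranges that crossed 0 for E2f3 in the challenge (-0.10 to 0.66), E2f3 in BA+rapamycin minus BA+DMSO (-0.70 to 0.0519), Rbl1 in rapamycin alone (-0.18 to 0.0360), and in the interaction E2f3 (-0.38 to 0.37), E2f7 (-0.0282 to 0.59) and Foxm1 (-0.67 to 0.23). The sign of Foxm1 in the interaction also turned with slide as a fixed block, array brightness, array weights and some arrays left out. The value of the reported fit is not given for Foxm1 in the interaction, since Foxm1 was measured on 1 of 3 arrays in each unchallenged group. The values of the alternatives rest in part on signals near background, and no change of direction is drawn from them. The cause was not tested for any of these. The other E2f7 probe was not well above background on any DMSO or rapamycin array. Its -0.97 in rapamycin alone therefore compares background readings, and no change of direction is drawn from it. Over all alternatives run, 193 of 227 values for single genes in the challenge and 224 of 236 in BA+rapamycin minus BA+DMSO kept their direction and side of the threshold. Over all probes, the median difference in BA+rapamycin minus BA+DMSO was -0.01 in the reported scaling and 0.13 when the percentile was taken over detected probes. No paired analysis was possible because the replicate numbers follow the order of deposition and the labels do not say that a number in the titles marks a shared animal, litter or day, with numbers that repeat within DMSO and within BA+rapamycin. Some arrays of different groups share a day in their titles, which is not stated to be a batch, and the fit with that day as a random block (correlation 0.50) is the one given above.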
